A study of Mus musculus with 4 samples.

Results

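Lymphocytes of a mouse tumour were compared with lymphocytes of the lymph node that drains it, both from the arm labelled mock. The members were chosen by UMI counts (unique molecular identifiers, each standing for 1 captured mRNA) in every cell barcode. A barcode had to hold at least 200 genes, at most 10% mitochondrial UMIs and at most 2 UMIs of Rhox5, a gene that marks the carcinoma cells. T cells held at least 1 UMI of Cd3d, Cd3e and Cd3g together, with none of the B-cell gene Cd79a or the myeloid and NK gene Tyrobp. B cells held at least 2 Cd79a UMIs, no Cd3 UMI and at most 1 Tyrobp UMI. NK cells held at least 1 UMI of Ncr1 and Klrb1c together, with neither Cd3 nor Cd79a. In all, 8074 of the 42163 deposited barcodes met these rules in the mock pair: 833 T, 249 B and 190 NK cells in the tumour, and 4908 T, 1791 B and 103 NK cells in the node.

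The series holds 4 libraries of single-cell RNA, 1 for each of tumor mock, TDLN mock, tumor NanoCa and TDLN NanoCa, where TDLN is the tumour-draining lymph node. They came from female mice of 4 to 8 weeks with tumours of CT 26, a mouse colon carcinoma line. NanoCa is a lipid nanoparticle that carries a calcium crystal and was designed for cancer immunotherapy through interferon-β. Tissue was dissociated, red cells were lysed, and cells were stained for CD45 and sorted; the labels do not state the gate, how many mice made up a library, the strain or any other allele. Both mock libraries are titled mock and tagged as untreated, yet the treatment text repeated on all 4 samples describes dosing with NanoCa, so the mock label rests on the title and the tag. Mock tumour and mock node are each 1 library. A difference between tissues can therefore not be told apart from a difference between those libraries, and no p-value is given. Every interval is a 95% interval for counting error alone.

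T cells that have not met antigen travel between blood and lymph nodes. They are led into the node by CCR7, live on IL-7 and leave along a gradient sensed by S1PR1. Activation replaces that programme with granzymes, perforin, interferon-γ and receptors for inflamed tissue, and long stimulation adds inhibitory receptors such as PD-1. Follicular B cells recirculate as well, form germinal centres in nodes, and can become antibody-secreting plasma cells. NK cells are innate lymphocytes that carry granzymes and perforin without prior priming and are usually sparse in resting nodes.

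The tumour library held 9404 barcodes with a median of 11934.5 UMIs, and the node library 10400 barcodes with a median of 4417 UMIs. Among the lymphocytes the order was the reverse. Median UMIs were 2410 in tumour and 4351 in node T cells, 2132 and 3839 in B cells, and 3756 and 5230 in NK cells. The labelled types were checked against marker genes that the class rules did not use. All 8 T-cell markers were found in T cells of both tissues, with summed levels of 1405 CPM (UMIs of a gene per 1e6 UMIs of the class) in tumour and 2193 CPM in node. All 8 B-cell markers were found in B cells, at 3007 and 4087 CPM. Of 8 NK markers, 7 were found in NK cells of both tissues, at 12864 and 10590 CPM, and Klra8 was at 0 in both. Markers of other cells were present too, and they differed between the sides. The carcinoma list reached 9332 CPM over all kept barcodes of the tumour library and 4837 CPM over those of the node library, so carcinoma RNA was not limited to the tumour library. In T cells this list came to 3679 CPM in tumour, with 12 of 15 genes found, and to 881 CPM in node, with 15 of 15; S100a6 alone supplied 3523 and 779 CPM. The 6 fibroblast genes were all found in T cells, at 1386 CPM in tumour and 569.9 CPM in node, and the 10 macrophage genes at 472 and 169.9 CPM. In the tumour, 26 T barcodes held at least 10 collagen UMIs and 11.9% of the class's UMIs. Ptprc, which encodes CD45, was seen in 69.5% of tumour T cells and 89.2% of node T cells. Results for T cells are therefore also given for core cells, which have a Ptprc UMI and at most 2 UMIs from each of collagens, macrophage genes and keratins. The mock libraries shared 121 barcode sequences, 11 of them in lymphocyte classes on both sides.

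NK cells made up a larger share of the lymphocytes in the tumour than in the node, and B cells a smaller one. Of the 1272 tumour lymphocytes, 14.9% were NK cells (13.0 to 17.0, exact binomial), against 1.51% (1.24 to 1.83) of the 6802 node lymphocytes. The log2 ratio was 3.30 (2.95 to 3.66), and it lay between 3.10 and 3.59 under every other rule and filter tried on the mock pair. B cells made up 19.6% (17.4 to 21.9) and 26.3% (25.3 to 27.4), a log2 ratio of -0.43 (-0.62 to -0.24). T cells were the majority on both sides, at 65.5% (62.8 to 68.1) and 72.2% (71.1 to 73.2). Measured against all kept barcodes, the tumour held 8.98% T, 2.68% B and 2.05% NK cells, and the node 47.8%, 17.4% and 1.00%. The unknown CD45 gate can set these last shares. Fewer barcodes of a type and less RNA in each, which keeps them below the rule, cannot be told apart. In the NanoCa pair, which shares no sample with the mock pair, NK cells were 12.3% of tumour and 0.735% of node lymphocytes, whereas B cells were 33.1% and 26.4%, the opposite order to mock.

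**Figure D1:**
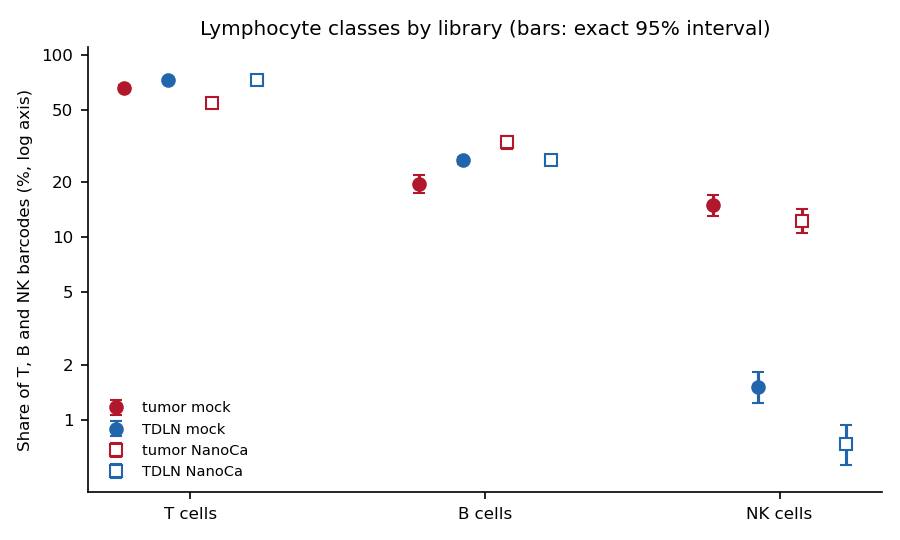
Share of T, B and NK cells among the lymphocytes of each library, in percent, with exact binomial 95% intervals for counting error. NK cells stand at 14.9% in the tumour and 1.51% in the node of the mock pair, and B cells change their order between the mock and the NanoCa pair.

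A gene was called higher or lower in the tumour when both libraries together held at least 50 UMIs in that class, the CPM differed at least 2-fold and the interval of the ratio left out 1. Of 11657 genes measured in T cells, 1726 were called higher (14.8%) and 845 lower (7.25%). Both percentages serve as the background for the counts of list members. The split depended on scaling: 67.1% of called T-cell genes were higher with CPM, 54.3% with TMM factors and 56.2% with median-of-ratios factors, which moved the median log2 ratio of all genes from 0.02 to -0.15 and -0.13. Core cells gave 1145 higher and 770 lower.

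Genes of naive and recirculating T cells were lower in the tumour. Of 20 genes in that list, all measured, 14 were called lower and none higher, with a median log2 ratio of -1.19 against 0.02 for all genes. Ccr7 (ENSMUSG00000037944), the receptor that leads T cells into the node's T zone, stood at 641 CPM (612 to 670.4) in tumour and 1748 CPM (1732 to 1765) in node T cells, a log2 ratio of -1.45 (-1.52 to -1.38). Il7r, the IL-7 receptor α chain, was at 168 and 451 CPM (-1.42). Both genes were therefore still well expressed in tumour T cells, at a lower level. The transcription factors of the naive state followed the same order: Lef1 was at 277 and 728 CPM (-1.40), Tcf7 at 121 and 272 CPM (-1.16), Satb1 at 232 and 643 CPM (-1.47), Bach2 at 178 and 498 CPM (-1.48) and Klf3 at 76.4 and 253 CPM (-1.73). S1pr1, which guides exit into lymph, was at 123 and 286 CPM (-1.22). Klf2, the factor that drives S1pr1, was at 1089 and 1425 CPM (-0.39) and was not called. In core cells 13 of the 20 were lower, with a median of -1.14. With every cell scaled to the same total 10 of the 20 were lower, with a median of -0.93, and Tcf7 (-0.77) and S1pr1 (-0.82) were no longer called. Both were also not called after thinning each cell to 1000 UMIs (-0.62 and -0.73).

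Cytotoxic genes were higher. Of 24 measured members of the effector list, 17 were called higher and none lower, with a median log2 ratio of 1.98, which was 2.38 in core cells. Gzmb (ENSMUSG00000015437), the granzyme that starts apoptosis in a target cell, stood at 329 CPM (308 to 350.4) in tumour and 24.6 CPM (22.7 to 26.6) in node T cells, a log2 ratio of 3.74 (3.59 to 3.89). Perforin (Prf1) opens the target's membrane to granzymes and was at 155 and 21.5 CPM (2.85). The granule gene Nkg7 was at 667 and 168 CPM (1.99). Gzma (19.95 and 5.22 CPM) and Gzmk (14.4 and 4.17 CPM) were called higher at low levels. Gzmd, Gzme and Gzmf, a cluster of granzymes seen in strongly activated killer cells, had the largest ratios of the list, and each rested on few cells. Gzme was at 64.3 and 0.486 CPM (7.05), from 13 tumour cells, and Gzmf at 79.8 and 0.728 CPM (6.78), from 10 tumour cells, 1 of which gave 35.8% of the UMIs. Serpinb9b, of a family that protects killer cells from their own granzymes, was at 48.5 and 1.29 CPM (5.23). Srgn, the granule proteoglycan, was at 1024 and 1273 CPM (-0.31) and was not called.

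Receptors shared with NK cells were also higher in tumour T cells, with 9 of 14 measured called higher and none lower. Klrc1 (NKG2A, an inhibitory receptor for the MHC class Ib protein Qa-1) was at 148 and 11.7 CPM (3.66), Klre1 at 33.7 and 1.90 CPM (4.15) and Klrk1 (NKG2D, an activating receptor for stress ligands) at 68.1 and 9.83 CPM (2.79). Any Tyrobp UMI removes a T barcode, and 225 tumour and 573 node barcodes with Cd3 were left out for it. An NK barcode with a Cd3 UMI and no Tyrobp UMI captured would still pass the T rule. The part of NK cells in the T-cell values of these receptors and of the cytotoxic genes was not tested.

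Among secreted factors, 9 of 21 measured were called higher and 1 lower. Ifng, the main macrophage-activating cytokine of T cells, was at 93.9 and 13.8 CPM (2.76). The chemokines Ccl4 (257 and 14.2 CPM, 4.18) and Ccl3 (64.7 and 2.95 CPM, 4.45) and the growth factors Csf2 (44.0 and 1.62 CPM, 4.77) and Csf1 (166 and 24.5 CPM, 2.76) were higher as well. In the remaining barcodes of the tumour library Ccl4 stood at 319, Ccl3 at 78.7, Csf2 at 85.0 and Csf1 at 207 CPM, all above their level in the T cells, whereas Ifng stood at 2.08 CPM there. The part of RNA from those barcodes in the T-cell values of the 4 genes was not tested. Il17a was the lower one, at 1.72 and 7.16 CPM (-2.06), from 4 tumour and 9 node cells.

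Inhibitory receptors did not move as a block. Of 20 measured genes of that list, 9 were called higher, 2 lower and 9 neither. Havcr2 (TIM-3) was at 28.6 and 1.86 CPM (3.94), Entpd1 (CD39) at 32.3 and 5.75 CPM (2.49), Pdcd1 (PD-1, ENSMUSG00000026285) at 167 and 31.1 CPM (2.42) and Lag3 at 39.2 and 9.18 CPM (2.09). Tigit was just past the 2-fold rule, at 111 and 54.3 CPM (1.03), and was not called with TMM or median-of-ratios factors, with every cell scaled to the same total (0.76) or after thinning (0.96). Ctla4, by contrast, was at 167 and 171 CPM (-0.03, -0.17 to 0.10) and Tox, a factor linked to exhaustion, at 178 and 209 CPM (-0.24). The lower genes were Tox2 (1.03 and 5.66 CPM) and Cxcl13 (1.38 and 7.04 CPM), both also known from follicular helper T cells, with 3 and 4 tumour UMIs.

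Activation genes gave a mixed picture. Of 23 costimulation genes, 6 were called higher and 1 lower. Tnfrsf9 (4-1BB), a receptor induced by antigen, was at 375 and 74.0 CPM (2.34), and the adhesion molecule Cd44, a mark of antigen experience, at 313 and 95.4 CPM (1.72). Cd44 was at 376 CPM in the other tumour barcodes, and its ratio was 1.30 in core cells. Cd27, which falls as T cells differentiate, was the lower one, at 148 and 316 CPM (-1.10). The surface markers Cd69 (-0.17), Icos (-0.51) and Tnfrsf4 (OX40, 0.17) were called neither way. Of 20 genes of antigen-receptor signalling, 18 were called neither way and 2 lower, among them the coreceptor Cd4 at 47.1 and 105 CPM (-1.16).

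Homing receptors split. Among 17 measured chemokine receptors, 5 were called higher and 5 lower. Cxcr6, which holds T cells near CXCL16-bearing cells, was at 114 and 19.3 CPM (2.55), and Ccr2, which draws cells to inflamed tissue, at 22.4 and 8.21 CPM (1.45). Cxcr3, the receptor for interferon-induced chemokines, was at 22.02 and 14.6 CPM (0.59) and was not called in the summed UMIs. It was called higher with every cell scaled to the same total (1.39), after thinning (1.62) and in the NanoCa pair (1.25), and after thinning it was seen in 2.68% of tumour and 0.947% of node T cells (5.88% and 4.14% before), with 0 and 0.056% of B cells. Of 19 genes tied to tissue retention, 7 were higher and 1 lower: Itga1, a collagen-binding integrin, was at 11.4 and 1.497 CPM (2.92), from 12 tumour cells, and the chemokine Xcl1 at 100.5 and 20.4 CPM (2.30). Itgae, the CD103 integrin of many resident T cells, was at 10.7 and 18.9 CPM (-0.82).

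Several broader programmes were higher in tumour T cells, at levels that the other tumour barcodes often exceeded. Cell-cycle genes were called higher in 21 of 40 and lower in none (median 1.04, core 1.12); Mki67, a mark of cycling cells, was at 96.7 and 38.4 CPM (1.33) and Cdk1 at 79.8 and 21.8 CPM (1.87). Heat-shock chaperones were higher in 8 of 15, with Hspa1a at 387 and 64.7 CPM (2.58) and Hspa1b at 498 and 92.3 CPM (2.43). The inducible Hsp70 genes, unlike Cdk1, were lower outside the class, at 41.2 CPM for Hspa1a and 155 CPM for Hspa1b in other tumour barcodes. Cdk1 stood at 117 CPM there. Glycolysis and hypoxia genes were higher in 10 of 25 and lower in 1, with Tpi1 at 469 and 114 CPM (2.05) in T cells and 882 CPM in other tumour barcodes. Interferon-stimulated genes were higher in 19 of 39, with Ifit3 at 24.8 and 4.81 CPM (2.36) and Oas1a at 28.6 and 6.15 CPM (2.22), beside 17.4 and 30.5 CPM in other tumour barcodes. None of the 22 measured genes of MHC class I presentation was called in either direction; H2-K1 was at 2858 and 3621 CPM (-0.34).

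**Figure D2:**
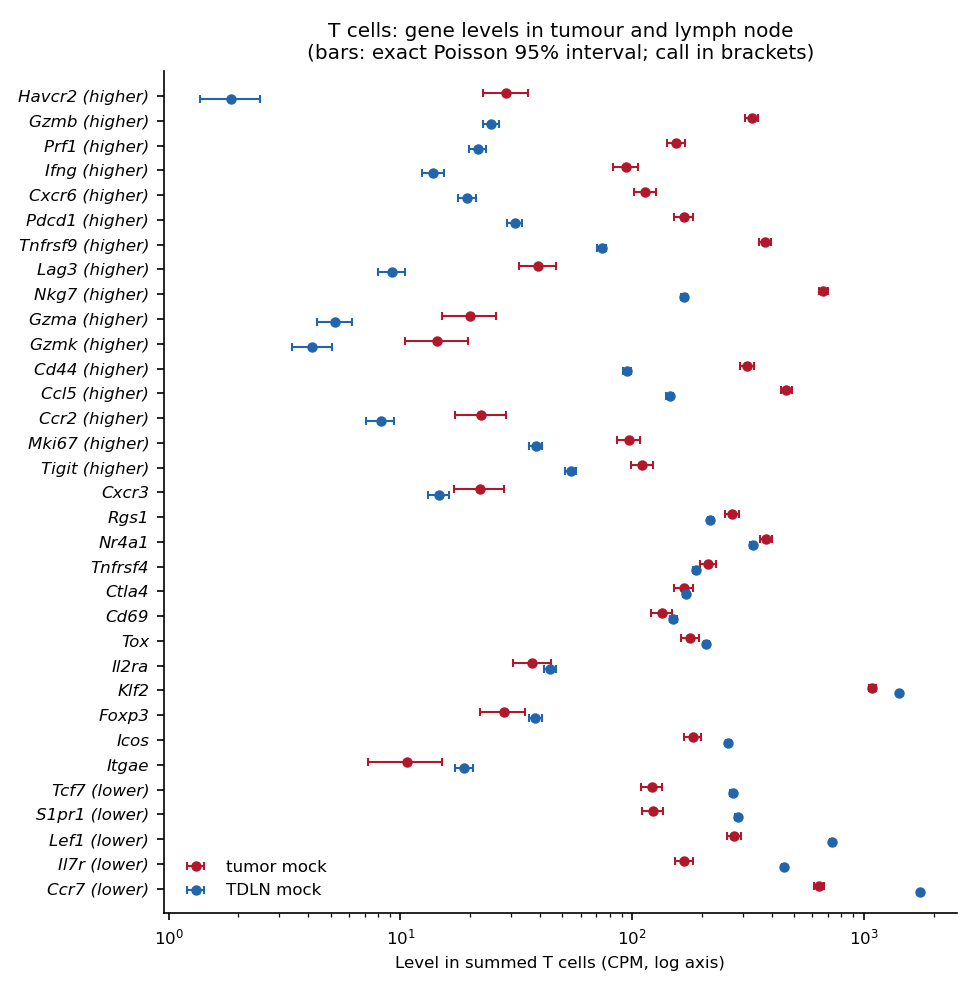
Level of the chosen genes in summed T cells of tumor mock and TDLN mock, in CPM on a log axis, with exact Poisson 95% intervals and the call in brackets, ordered by log2 ratio. Tumour points lie to the right of node points for Gzmb, Havcr2, Prf1 and Ifng and to the left for Ccr7, Il7r and Lef1, and Ctla4 lies at 167 and 171 CPM.

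The widest differences outside these lists were found by the size of the interval bound among genes with at least 50 CPM. Nrgn, a small calmodulin-binding protein, was at 193 and 12.0 CPM (4.01) and at 3.23 CPM in other tumour barcodes. Mecom, a zinc-finger transcription factor, was at 63.0 and 7.44 CPM (3.08). In other tumour barcodes it was at 56.0 CPM, and in core T cells at 28.9 and 2.50 CPM (3.53). B cells held Mecom at 81.8 and 7.86 CPM (3.38). Tnfaip6, a hyaluronan-binding protein, was at 104 and 10.0 CPM (3.37), but at a log2 ratio of 0.67 in core cells, from 20 tumour cells in all. Of the 1726 higher genes, 206 (11.9%) had at least 20% of their tumour UMIs in 1 barcode. On the lower side stood Tesc, a calcium-binding protein, at 1.72 and 54.7 CPM (-4.99), and Frat2, an activator of Wnt signalling, at 8.26 and 93.1 CPM (-3.50). Slc15a2, a peptide transporter, was at 8.60 and 57.5 CPM (-2.74). In barcodes of no lymphocyte class the log2 ratios were -4.66 for Tesc, -3.82 for Frat2 and -5.19 for Slc15a2. How much of these differences belongs to the T cells was not tested. In T cells of the NanoCa pair Tesc was not called, at 20.9 and 34.0 CPM (-0.70). Frat2 (-1.90) and Slc15a2 (-3.99) were called lower there.

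**Figure D3:**
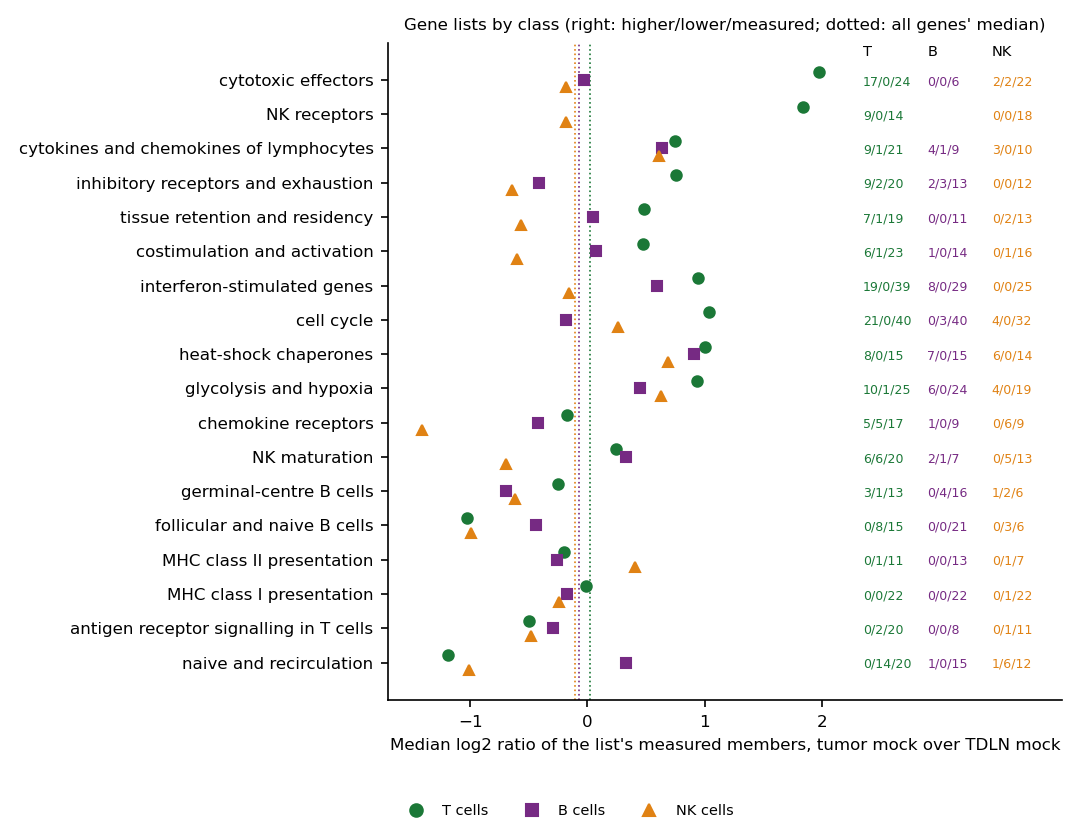
Median log2 ratio (tumour over node, mock pair) of the measured members of each gene list in T, B and NK cells, with the number called higher and lower. The naive and recirculating list stands at -1.19 in T cells, and the cytotoxic list at 1.98 in T cells and -0.19 in NK cells.

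T cells were next split by their own UMIs into Foxp3+ cells (regulatory T cells, at least 1 Foxp3 UMI), CD4 cells, CD8 cells and a rest with neither coreceptor seen or both. Foxp3+ cells were 46 of 833 in tumour (5.52%) and 338 of 4908 in node (6.89%), CD4 cells 12.5% and 27.8%, CD8 cells 29.3% and 31.5%, and the rest 52.7% and 33.9%. Node T cells were deeper, and after each cell was thinned to 1000 UMIs the shares were 2.68% and 3.11% Foxp3+, 7.66% and 9.82% CD4, 21.2% and 20.05% CD8, and 68.5% and 67.0% rest. The thinned shares left out 11 tumour and 50 node T cells. Most of the unthinned difference in the CD4 share was thus not present at equal depth.

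The effector genes were higher within CD8 cells as well. In the 244 tumour and 1545 node CD8 cells, Gzmb was at 707 and 28.4 CPM (4.64, 4.43 to 4.85), Prf1 at 367 and 46.5 CPM (2.98), Ifng at 228 and 20.04 CPM (3.51) and Nkg7 at 1521 and 394 CPM (1.95). Tnfrsf9 was at 633 and 42.9 CPM (3.88), Pdcd1 at 378 and 34.4 CPM (3.46), Havcr2 at 64.3 and 2.68 CPM (4.59) and Cxcr6 at 245 and 24.9 CPM (3.30). Ctla4, Tnfrsf4 and Il2ra, which were called neither way over all T cells, were called higher here, with Ctla4 at 182 and 82.1 CPM (1.14), Tnfrsf4 at 193 and 36.0 CPM (2.42) and Il2ra, the high-affinity IL-2 receptor chain, at 44.9 and 10.6 CPM (2.08). The naive genes were lower, with Lef1 at 163 and 691 CPM (-2.08), Il7r at 123 and 494 CPM (-2.002) and S1pr1 at 59.9 and 239.8 CPM (-2.001). Itgae was lower too, at 3.52 and 16.7 CPM (-2.24), from 4 tumour UMIs. In CD8 cells of the NanoCa pair the log2 ratios were 4.15 for Gzmb, 3.46 for Pdcd1, 2.25 for Tnfrsf4 and 1.88 for Il2ra. Ctla4 had the opposite sign there (-0.20). Whether a subset's ratio differs from another's was not tested.

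The same genes also differed in the share of CD8 cells with a UMI at equal depth. After thinning to 1000 UMIs, Gzmb was seen in 18.9% (14.1 to 24.3) of 244 tumour and 0.583% (0.267 to 1.10) of 1544 node CD8 cells, beside 1.21% and 0.112% of B cells, which should lack it. Unthinned, these CD8 shares were 30.3% and 2.01%. Pdcd1 was seen in 21.3% and 1.62% after thinning (39.8% and 3.82% before), with 0 and 0.112% in B cells. Tnfrsf9 was seen in 61 of 244 and 26 of 1544 cells (40.2% and 6.47% before), with 1.61% and 0.224% in B cells. Havcr2 was seen in 15 of 244 tumour cells and in none of 1544 node cells, a log2 ratio of at least 4.98 with the node set to 3 cells. Nkg7 was already common in node CD8 cells, at 26.2%, and reached 50.8% in the tumour (68.2% and 71.3% before thinning), with 0.168% of node and none of the tumour B cells. Lef1 went the other way, in 17.6% of tumour and 50.8% of node CD8 cells (40.6% and 91.2% before), with 1.21% and 1.57% in B cells.

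Within CD4 cells several effector genes were too low to be measured by the rule. In the 104 tumour and 1363 node CD4 cells, Tnfrsf9 was at 252 and 38.4 CPM (2.72), Cd44 at 421 and 90.1 CPM (2.23), Cxcr6 at 55.3 and 15.9 CPM (1.80) and Nkg7 at 65.6 and 26.8 CPM (1.29), all called higher. Gzmb was at 41.5 and 4.84 CPM (3.10, 2.01 to 4.10), but its 12 tumour and 32 node UMIs lie under the minimum of 50. Gzma, Gzmk and Havcr2 had 1 tumour UMI each and were under it too. Ccr7 was lower at 871 and 1781 CPM (-1.03). In core CD4 cells Nkg7 (0.996) and Ccr7 (-0.91) lay inside the 2-fold rule. Tnfrsf9 (2.87), Cd44 (1.61) and Cxcr6 (1.79) stayed past 2-fold there. The naive genes Lef1 (-0.92), Tcf7 (-0.88), Il7r (-0.79) and S1pr1 (-0.67) stayed inside the 2-fold rule, and so did Pdcd1, at 38.0 and 29.6 CPM (0.36, -0.67 to 1.23). Ifng had 2 tumour UMIs in these cells. In CD4 cells of the NanoCa pair the log2 ratios were -1.66 for Lef1, -0.34 for Tcf7, -1.58 for Il7r, -2.48 for S1pr1 and 1.52 for Pdcd1.

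Several genes known for high expression in regulatory T cells were at similar levels in the Foxp3+ cells of both tissues. Ctla4 was at 761 and 744 CPM (0.03, -0.25 to 0.31), Tnfrsf4 at 1201 and 1047 CPM (0.20), Icos at 607 and 539.6 CPM (0.17) and Il2ra at 220.3 and 309 CPM (-0.49), none of them called. Foxp3 itself chose these cells and is no comparison. Ccr2 was higher at 167 and 34.2 CPM (2.29), Gzmb at 387 and 103 CPM (1.91), Tigit at 434 and 177 CPM (1.29) and Tnfrsf9 at 861 and 427 CPM (1.01). Ccr7 (634 and 1815 CPM, -1.52), Lef1 (100.1 and 317 CPM, -1.66) and Tcf7 (26.7 and 109 CPM, -2.02) were lower. These values rest on 46 tumour cells.

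**Figure D4:**
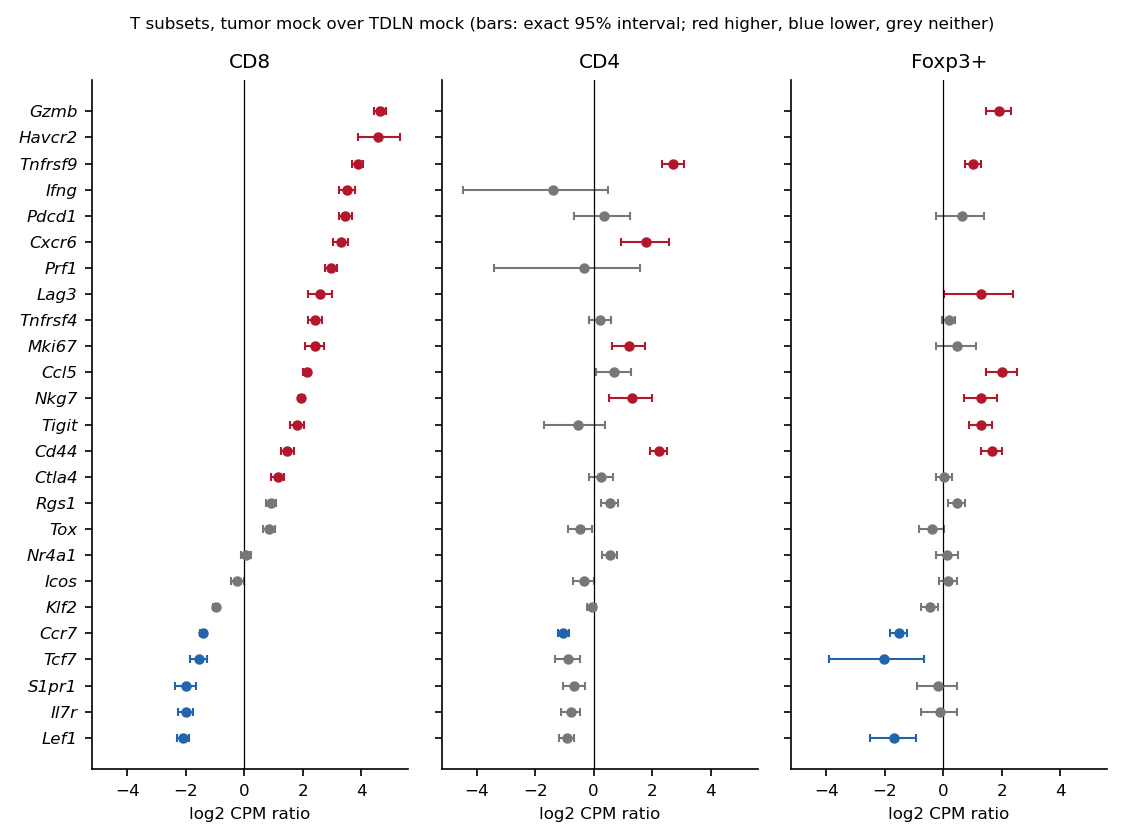
Log2 ratio (tumour over node, mock pair) of T-cell genes within CD8, CD4 and Foxp3+ T cells, with 95% intervals for counting error; red points were called higher, blue lower and grey neither. Gzmb reaches 4.64 in CD8 cells and 1.91 in Foxp3+ cells, and Ctla4 lies at 1.14 in CD8 and 0.03 in Foxp3+ cells.

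Genes of B-cell identity were called neither way in the mock pair. Of 9928 genes measured, 820 were called higher (8.26%) and 530 lower (5.34%); 60.7% of the called genes were higher with CPM, 51.8% with TMM and 51.6% with median-of-ratios factors. None of the 21 genes of follicular and naive B cells was called, with a median log2 ratio of -0.44 against -0.07 for all genes. The surface protein Ms4a1 (CD20) was at 510.1 and 737 CPM (-0.53), Ighm at 238 and 332 CPM (-0.48), Ighd at 122 and 168 CPM (-0.46) and the low-affinity IgE receptor Fcer2a (CD23) at 291 and 295 CPM (-0.02, -0.23 to 0.18). Antigen presentation was close as well: Cd74, the class II invariant chain, was at 17219 and 20881 CPM (-0.28), and none of 13 MHC class II genes was called. Ccr7, lower in T cells, was at 559 and 748 CPM (-0.42) in B cells, and the follicle receptor Cxcr5 at 87.3 and 147 CPM (-0.75). Neither was called. The NanoCa pair differed here: 9 of the 21 follicular and naive genes were called lower there (median -0.80), as were 5 of the 13 MHC class II genes, with Fcer2a at 167 and 451 CPM (-1.44), Ccr7 at 488 and 993 CPM (-1.02) and Cd74 at 12927 and 25947 CPM (-1.005).

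Some germinal-centre and antibody-secretion genes were lower in tumour B cells. Of 16 germinal-centre genes, 4 were called lower and none higher. Mef2b, a transcription factor of germinal-centre B cells, was at 122 CPM (97.8 to 150.3) in tumour and 281 CPM (271 to 291) in node, a log2 ratio of -1.20 (-1.52 to -0.90). Mybl1 was at 12.5 and 43.3 CPM (-1.79) and Gcsam at 34.7 and 74.4 CPM (-1.10), while Bcl6, the master factor of this state, was at 56.8 and 84.2 CPM (-0.57). In core cells Mef2b was at -0.88, and 1 of the 16, Mybl1 (-1.62), was called lower. Of 13 measured plasma-cell genes, 3 were lower, 1 higher and 9 neither, with a median log2 ratio of -0.36. The lower ones were Jchain, which joins antibody polymers, at 201 and 616 CPM (-1.62), and Mzb1 at 107 and 361 CPM (-1.76). Derl3 was the last of them, at 1.39 and 15.3 CPM (-3.46) with 1 tumour UMI. Xbp1, also a plasma-cell gene, was at 48.5 and 62.8 CPM (-0.37, -0.91 to 0.12) and was not called. Of 11 immunoglobulin constant genes, 4 were lower, all of switched classes. Igha was at 1.39 and 169 CPM, with 1 tumour UMI and only 13 node cells, and Ighg2b at 1.39 and 42.6 CPM. Ighg3 had no UMI in the tumour and 36.5 CPM in the node, at least 3.13 lower on the log2 scale with the tumour set to 3 UMIs. After thinning, Jchain was seen in 12 of 248 tumour B cells (4.84%) and 187 of 1785 node B cells (10.5%), against 10.8% and 19.7% before thinning, with 0 and 0.350% of T cells. Other lists had lower members as well, with 3 of 13 inhibitory receptors, 3 of 16 NR4A, EGR and calcium-NFAT targets and 3 of 40 cell-cycle genes. With every cell scaled to the same total, 6 of 39 cell-cycle genes were higher and none lower. Of all 9827 genes measured that way, 728 were higher and 689 lower.

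Higher in tumour B cells were heat-shock chaperones, in 7 of 15, with Hspa1b (ENSMUSG00000090877) at 588 and 53.5 CPM (3.46) and Hspa1a at 338 and 35.9 CPM (3.24). The adhesion gene Cd44 was at 255 and 85.8 CPM (1.57), beside 376 CPM in other tumour barcodes. Ccl4, a chemokine of activated B cells, was at 101 and 11.8 CPM (3.10), beside 318 CPM. Of 20 immediate-early genes, 3 were higher: Jun at 543 and 239 CPM (1.18), Fosb at 348 and 171 CPM (1.02) and Ier3 at 123 and 26.8 CPM (2.20). Of 29 interferon-stimulated genes, 8 were higher and none lower, with Ifi44 at 36.0 and 5.46 CPM (2.72). Among the genes with the largest ratios were some known from stromal cells. Lama2, a basement-membrane laminin, was at 61.0 and 3.05 CPM (4.32), and Col4a1, a basement-membrane collagen, at 134 and 11.3 CPM (3.57), where 1 tumour cell gave 63.9% of the UMIs. Of the 820 higher genes, 277 (33.8%) had at least 20% of their tumour UMIs in 1 barcode. In tumour and node B cells the macrophage list stood at 828 and 619 CPM, the fibroblast list at 347 and 374 CPM and the carcinoma list at 2595 and 679 CPM. Their part in these values was not tested.

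The main killing genes of NK cells did not reach a 2-fold difference between the tissues. Of 4602 genes measured in them, 185 were called higher (4.02%) and 355 lower (7.71%). Gzma was at 8921 CPM (8730 to 9115) in tumour and 6544 CPM (6357 to 6734) in node NK cells (0.45), Gzmb at 3003 and 3105 CPM (-0.05), Prf1 at 753 and 567 CPM (0.41) and Nkg7 at 2119 and 2115 CPM (0.00, -0.10 to 0.10). Their order differed from gene to gene. After thinning, Gzmb was seen in 66.1% of 189 tumour and 45.5% of 101 node NK cells, a log2 ratio of 0.54 (0.04 to 1.06). Before thinning these shares were 81.1% and 68.0%, and thinned B cells had 1.21% and 0.112%. The thinned share ratios were 0.17 (-0.24 to 0.60) for Gzma, 0.04 (-0.55 to 0.64) for Prf1 and 0.02 (-0.37 to 0.43) for Nkg7. Ifng was at 157 and 79.8 CPM (0.98, 0.53 to 1.45), just inside the rule, and at 1.09 in core cells, where it was called. The chemokines Ccl3 (345 and 181 CPM, 0.94), Ccl4 (1792 and 1473 CPM, 0.28), Ccl5 (3027 and 5295 CPM, -0.81) and Xcl1 (1073 and 1138 CPM, -0.09) were not called. All 18 measured NK receptors were called neither way, with a median of -0.18 against -0.11 for all genes. Of 22 cytotoxic genes, 2 were higher and 2 lower: Serpinb9b was at 309.9 and 118 CPM (1.40) and Gzme at 155 and 32.2 CPM (2.27), from 8 tumour and 3 node cells. Gzmf (73.2 and 379 CPM, -2.37) was seen in 3 cells a side, and 94.1% of its tumour UMIs lay in 1 cell. Lamp1, a lysosomal membrane protein, was at 35.5 and 85.4 CPM (-1.27).

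Lower in tumour NK cells were several genes known from immature or recirculating lymphocytes and several chemokine receptors, while others were not called. Of 12 measured genes of the naive and recirculating list, 6 were lower, 1 higher and 5 neither. In core cells 4 of 11 were lower. Il7r, which marks some immature NK cells and other innate lymphoid cells, was at 10.8 and 93.8 CPM (-3.12, -4.25 to -2.16). After thinning it was seen in 1 of 189 tumour and 13 of 101 node NK cells, with 0.403% and 0.224% in B cells, and before thinning in 4.21% and 24.3%. Tcf7 was at 19.4 and 70 CPM (-1.85), and Klf3 at 22.6 and 118 CPM (-2.38). Klf2 (616 and 839 CPM, -0.45), Lef1 (53.8 and 86.8 CPM, -0.69) and Cd27 (105 and 171 CPM, -0.70) were not called. Of 9 measured chemokine receptors, 6 were lower and none higher, among them Cxcr4 (31.2 and 109 CPM, -1.81), Cxcr3 (23.7 and 63.0 CPM, -1.41), Cxcr6 (11.8 and 54.6 CPM, -2.21) and Gpr183 (149 and 298 CPM, -1.01). Ccr7 was at 28.0 and 125 CPM (-2.15), from 8 cells a side. In core cells 3 receptors were lower. The Cxcr6 value rests on 50 UMIs in all and fell under the minimum in core cells and in most other settings that leave out UMIs. Several of these genes are also T-cell genes. The T-cell marker list came to 743 CPM in tumour and 1176 CPM in node NK cells, with a UMI in 93.2% and 99.0% of them. In barcodes of no lymphocyte class the log2 ratios were -3.73 for Il7r, -4.30 for Tcf7, -5.08 for Ccr7 and -2.22 for Cxcr4. The part of T-cell RNA in these values was not tested. Of 13 NK maturation genes 5 were lower, including Rora (68.9 and 202 CPM, -1.55), Emb (149.6 and 389 CPM, -1.38) and Ly6c2 (538 and 1414 CPM, -1.39). Eomes, a T-box factor of conventional NK cells, was at 118 and 228 CPM (-0.95), while its relative Tbx21 was at 125 and 148 CPM (-0.25). Of 11 TGF-β response genes, 3 were lower, with Smad7, a feedback inhibitor of that pathway, at 46.3 and 144 CPM (-1.64) and Smad3 at 22.6 and 77.0 CPM (-1.77). The other innate lymphoid list (8 genes) came to 107 CPM in tumour, with 4 genes found, and 105 CPM in node, with 5.

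Heat-shock chaperones were higher in NK cells as well, in 6 of 14, with Hspa1b at 389.6 and 60.2 CPM (2.69). Bag3, a cochaperone of Hsp70, was at 131 and 16.8 CPM (2.97), although 52.5% of its tumour UMIs lay in 1 cell. Lyz2, a macrophage lysozyme, was at 589.7 and 196 CPM (1.59), with 53.8% of tumour UMIs in 1 cell. The macrophage list came to 1526 CPM in tumour and 683 CPM in node NK cells. The C1q genes of that list stood at 109% and 98.3% of their level over all kept barcodes of each library. These lists' part in the NK results was not tested.

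**Figure D5:**
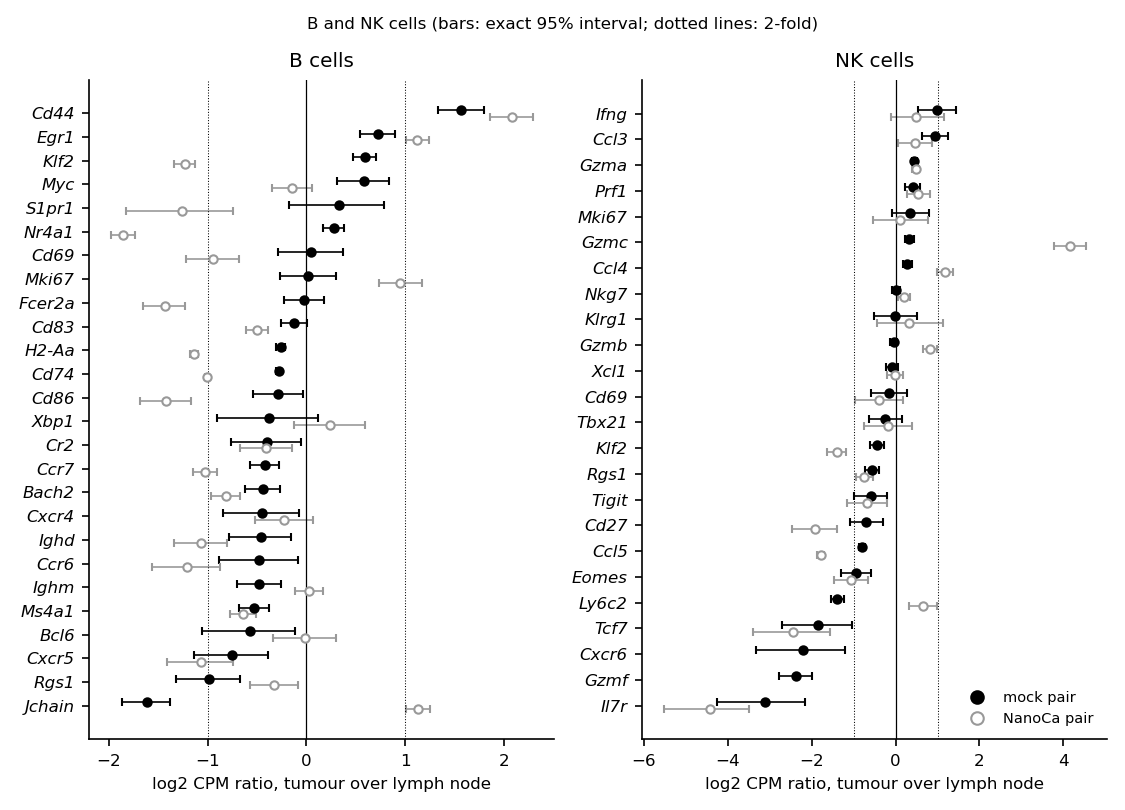
Log2 ratio (tumour over node) of chosen B-cell and NK-cell genes in the mock pair (filled) and the NanoCa pair (open), with 95% intervals for counting error and dotted lines at 2-fold. In mock, Fcer2a lies at -0.02 and Jchain at -1.62 in B cells, and Nkg7 at 0.00 and Il7r at -3.12 in NK cells.

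Some genes were low in the tumour library in every class and outside the classes. Tmem160, a mitochondrial membrane protein, was at 9.98 and 102 CPM in T cells (-3.35), at 9.69 and 141 CPM in NK cells (-3.87), and at 4.92 and 80.9 CPM in barcodes other than T cells. Orai1, a pore of the calcium-release-activated channel, was at 32.7 and 265 CPM in T cells (-3.02) and at 9.24 and 74.1 CPM in the others. Taf10, a subunit of the general transcription factor TFIID, was at 65.2 and 399 CPM in B cells (-2.62) and at 42.5 and 308 CPM in the barcodes outside that class. The same was counted over all lower genes. Of the 845 genes lower in T cells, 619 (73.3%) were also at least 2-fold lower in the barcodes of no lymphocyte class, against 16.0% of all genes measured. The figures were 67.1% and 14.8% for B cells, and 69.9% and 13.7% for NK cells. For the genes called higher, 2.61% in T, 2.93% in B and 5.41% in NK cells were at least 2-fold higher outside, against 0.463%, 0.292% and 0.369% of all genes measured. Node barcodes of no class include lymphocytes that the rules left out, such as 651 with both Cd3 and Cd79a. How much of the lower calls belongs to the library and how much to its lymphocytes was not tested. For the higher calls this outside ratio cannot show RNA from other barcodes, since it compares those barcodes between the libraries. Lama2 had an outside log2 ratio of 0.49 beside 4.32 in B cells, and Mecom 0.66 beside 3.08 in T cells. The part of RNA from other barcodes in the higher calls was not tested.

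The NanoCa pair gives a second tumour library and a second node library that share no sample with the mock pair. Its libraries also come from the treated arm, so treatment and library cannot be told apart between the pairs. Of the 1518 T-cell genes called higher in mock and measured there, 1329 (87.5%) were called higher again, where 17.9% of all genes were. Of the 824 lower genes measured there, 270 (32.8%) were called lower again, where 7.70% of all genes were. In B cells the shares were 69.4% of the higher and 13.2% of the lower calls, beside 10.3% and 6.41% of all genes, and in NK cells 83.8% and 36.4%, beside 8.71% and 10.8%. For T cells Gzmb was at 82.1 and 9.08 CPM there (3.18), Pdcd1 at 63.6 and 22.1 CPM (1.52) and Ccr7 at 322 and 2112 CPM (-2.71), each called as in mock. Tigit was at 60.7 and 61.8 CPM (-0.027). Interferon-stimulated genes were called higher in 6 of 40 there, with a median of 0.29 against 0.95 in mock, and cytotoxic genes in 11 of 20, with 1 lower and a median of 1.21 against 1.98. Naive genes were lower in 12 of 20 and cell-cycle genes higher in 23 of 40. In B cells the germinal-centre and plasma-cell order was not kept: Mef2b was at 208 and 162 CPM (0.37), and Jchain at 579.9 and 265 CPM (1.13), called higher. B-cell cell-cycle genes were higher in 19 of 40, with a median of 0.97. In the summed mock UMIs none was higher (median -0.18), but 6 of 39 were with every cell scaled to the same total (0.38). Interferon-stimulated genes of B cells were higher in 2 of 35 in the NanoCa pair, with 3 lower. NK Il7r was at 15.2 and 328 CPM (-4.43).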

How the data were processed

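Per the file headers, the authors made the deposited counts with Cell Ranger 7.1.0 from 10x 3′ libraries: whole-number UMI counts of 31253 features in every called barcode, not normalized. The genome build and annotation are not named there. The UMIs of all barcodes in a class were added up for each library, and the sums scaled to CPM. Ratios carry exact conditional binomial intervals, levels exact Poisson and shares exact Clopper-Pearson intervals, all at 95% and for counting error only. A count of 0 was set to 3 for a bound. TMM factors came from edgeR 4.0.16 and doublet scores from Scrublet (scanpy 1.11.5). Its own threshold marked at most 9 barcodes a library, so no barcode was removed except in an alternative that took out the highest scores (689 in tumour, 843 in node). Named genes were a fixed set for each class, the 10 highest and 10 lowest by interval bound at 50 CPM or more, and up to 4 called genes a list. Members and lists were chosen with earlier results of these data known; single genes named inside a described list beyond that rule were picked with their values in view. A few named genes are not reported here. The calling steps were tested on simulated class sums that varied by counting error alone. That simulation held no clumping of UMIs in single cells and no library effect, so it could not test the calls against either. Alternatives varied the UMI minimum, fold, scaling, class rule, mitochondrial and Rhox5 limits, depth, free RNA and library pair.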

Additional observations from a re-analysis of the deposited data

Results flagged for a closer look

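Genes whose ratio had the opposite sign in the NanoCa pair, with both calls past the rule, were counted. In T cells they were 1 of 1518 higher and 33 of 824 lower genes measured there. In B cells they were 5 of 738 and 29 of 507, and in NK cells 0 of 111 and 11 of 220. Of all T-cell genes measured in the NanoCa pair, 17.9% were called higher and 7.70% lower. The shares were 10.3% and 6.41% in B cells, and 8.71% and 10.8% in NK cells. Each count was a smaller share than that of all genes called in the opposite direction. A named gene of each class was looked at again. In T cells Cxcl14, a chemokine of stromal and epithelial cells, was at 14.8 CPM in tumour and 99.9 CPM in node of the mock pair (log2 ratio -2.76), and at 157 and 6.79 CPM in the NanoCa pair (4.53). In mock it was seen in 11 tumour and 70 node cells, and 1 tumour cell gave 62.8% of its UMIs there. In B cells Jchain was at 201 and 616 CPM in mock (-1.62) and at 579.9 and 265 CPM in NanoCa (1.13). In NK cells Tmem160 was at 9.69 and 141 CPM in mock (-3.87) and at 72.8 and 24.1 CPM in NanoCa (1.60). These differences between pairs were not tested, since each group is 1 library.

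A pair of genes had opposite calls in T and NK cells of the same libraries. Cxcr6 had a log2 ratio of 2.55 in T cells and -2.21 in NK cells, the latter from 9 tumour and 12 node cells with 50 UMIs in all. The NK ratio lay between -2.70 and -1.52 under the other settings, but under 9 of them, core cells and the NanoCa pair included, it was not called. Gzmf had 6.78 in T cells and -2.37 in NK cells, from 3 NK cells a side. The difference between the classes was not tested.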

How the results depend on the processing

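No paired analysis was possible because every group is 1 library with no replicate. Of the main values, 99 of the alternatives stayed within 1.5 times the count or within the interval, 25 moved and 1 reversed. For single genes and list medians, 3000 stayed, 598 moved and 31 reversed. Genes called higher in T cells numbered 842 at 200 UMIs or more, 1145 in core cells and 662 in cells thinned to 1000 UMIs, and genes called lower 1755 at 1.5-fold and 562 thinned. For B cells the higher calls were 1323 at 10 UMIs, 248 at 200, 481 in core cells and 210 thinned, and the lower calls 1001 at 1.5-fold. The fewest genes were measured in NK cells, and their higher calls were 581 at 10 UMIs, 30 at 200, 343 at 1.5-fold, 94 with the stricter class rule, 123 with Ptprc and no keratin, 83 with Rhox5 at 0, 67 in core cells, 37 thinned and 109 with free RNA subtracted. Lower NK calls were 697 at 10 UMIs, 64 at 200, 803 at 1.5-fold and 43 thinned. A higher UMI minimum and thinning measure fewer genes; for the other settings the cause was not tested. In the NanoCa pair the log2 ratio of shares was -0.42 for T, 0.32 for B (reversed) and 4.07 for NK cells.

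Of the named calls, core cells gave the same call for 35 of 37 in T, 19 of 21 in B and 21 of 25 in NK cells, the NanoCa pair for 27, 9 and 9, and thinned cells for 27, 14 and 6. In NK cells it was 21 under the stricter class rule, 19 with Rhox5 at 0 and 20 with every cell scaled to the same total, which gave 34 in T cells. TMM and median-of-ratios factors lost Tigit in T cells. Reversed signs in the NanoCa pair were, in T cells, Cxcl14 4.53, Hnrnpa0 0.019, Rnf187 0.13, Tigit -0.027 and Tmem160 0.74. In B cells they were Bri3 0.038, H1f10 0.64, Hnrnpa0 0.48, Jchain 1.13, Ppp1cc 0.36, Rnf187 0.25, Taf10 0.23 and Tmem160 0.73, and the list medians of immediate-early (-0.41), glucocorticoid and metallothionein (-0.036) and germinal-centre genes (0.22). In NK cells they were Gzmf 0.60, Ly6c2 0.65, Map2k2 0.16, Raly 0.030, Rnf187 0.41, Taf10 0.050, Tmem160 1.60 and Tprgl 0.41. Within the mock pair, T-cell Cxcl14 was 0.087 in core cells and 0.14 without the collagen-rich barcodes. The B-cell cytokine median (0.64) was -0.62 at 200 UMIs, -0.78 thinned and -0.50 with free RNA subtracted. The NK MHC class II median was -0.65 in core cells and NK Rad51b -0.17 thinned. The cause was not tested. Core cells, collagen-rich barcodes left out and the lowest of 3 free-RNA estimates were chosen after seeing the data. The planned free-RNA subtraction was not run, since its estimate came out at 106% of the library's level in tumour T cells.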
